A study of Homo sapiens with 8 samples.

Results

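The genes described here are the well-counted members of the ZNF zinc finger family in A549, a cell line grown out of a human lung adenocarcinoma. They were taken as the rows whose symbol is ZNF followed by digits and an optional letter and whose raw count averaged 100 or more over the 8 libraries, which gave 109 of 406 ZNF rows and of 13841 rows in all. Every culture underwent 24 h of cyclic stretch (15% elongation at 15 cycles per min) and was then kept for another 6 days. The cells were then sorted by β-galactosidase staining, a lysosomal activity used to mark senescent cells. RNA of positive cells gave 4 libraries (numbers 1, 3, 4 and 5) and RNA of negative cells gave 4 (numbers 2, 6, 7 and 8). Both groups come from 1 tumour line and both had been stretched, so the comparison sets stained against unstained cells and says nothing about stretch itself. The count threshold used the mean over both groups and is not neutral to the comparison. Of the 109 members, 91 averaged 100 or more in each group, 18 did so in positive libraries only and 0 in negative libraries only. Just inside it stood ZNF398, ZNF511 and ZNF827 with mean raw counts of 102.4, 102.9 and 103.2, and just outside it ZNF41, ZNF792 and ZNF584 with 99.4, 97.5 and 95.

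Most ZNF proteins read DNA through tandem C2H2 fingers, each a small loop held by a zinc ion between a pair of cysteines and a pair of histidines. In many of them a KRAB domain near the amino end recruits the co-repressor TRIM28, which brings the histone methyltransferase SETDB1 and heterochromatin proteins to the bound site. KRAB genes are numerous in tandem clusters on human chromosome 19, and many of their products bind retroelements. Other ZNF proteins lack KRAB and serve as transcription factors, ubiquitin ligases, RNA-binding proteins or spindle factors. Silencing of repeats and loss of heterochromatin are much studied in senescent cells.

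All 109 symbols were found in GENCODE 29 (GRCh38), 107 as protein-coding genes and 2, ZNF252P and ZNF271P, as pseudogenes. Chromosome 19 held 36 of them and chromosome 7 held 12. In 29 cases the gene lay in 1 of 9 runs of at least 5 zinc finger genes on chromosome 19. The translated coding sequences held a median of 9 fingers of the usual spacing, from 0 in 10 proteins to 29 in ZNF142. Fingers of other spacing were not counted. The KRAB box was searched for by its core pattern with up to 3 of 7 fixed positions differing, which matched 61 proteins and not the 46 others. Of the 61, 28 were encoded on chromosome 19, and they had a median of 11 fingers against 4 in the 46. A stricter search with at most 1 differing position, added after the matches had been seen, kept 55. The 6 proteins that only the wider search matched were ZNF280C, ZNF287, ZNF532, ZNF609, ZNF638 and ZNF770. Among them ZNF609 and ZNF638 held no finger of the usual spacing.

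The 250 bases before the RefSeq start (GRCh38.p14) are shown for 4 members that open the results, ZNF224, ZNF780B and ZNF12, which had higher values in positive cells, and ZNF330, which had lower ones. They lie at chr19:44094111-44094360 (plus strand), chr19:40056232-40056481 (minus), chr7:6706948-6707197 (minus) and chr4:141220645-141220894 (plus). Each is written 5′ to 3′ along its gene, and capitals mark matches on either strand to the core of the ZNF143 site, CCGGAA (the core bound by ETS factors), GGGCGG (the GC box) or CCAAT.
ZNF224: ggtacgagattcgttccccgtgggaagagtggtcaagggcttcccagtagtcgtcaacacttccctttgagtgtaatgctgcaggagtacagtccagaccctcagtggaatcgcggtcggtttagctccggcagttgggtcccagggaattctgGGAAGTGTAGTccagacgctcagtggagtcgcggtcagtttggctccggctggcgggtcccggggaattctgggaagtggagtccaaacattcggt
ZNF780B: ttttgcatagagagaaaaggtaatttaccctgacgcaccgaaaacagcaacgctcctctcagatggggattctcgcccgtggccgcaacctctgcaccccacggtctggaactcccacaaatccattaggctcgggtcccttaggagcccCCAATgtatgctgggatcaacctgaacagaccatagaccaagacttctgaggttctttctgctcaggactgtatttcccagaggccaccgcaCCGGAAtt
ZNF12: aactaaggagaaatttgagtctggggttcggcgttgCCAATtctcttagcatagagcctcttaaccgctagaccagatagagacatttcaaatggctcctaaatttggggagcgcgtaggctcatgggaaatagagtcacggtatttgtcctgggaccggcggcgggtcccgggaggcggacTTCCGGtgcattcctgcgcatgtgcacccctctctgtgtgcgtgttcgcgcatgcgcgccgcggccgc
ZNF330: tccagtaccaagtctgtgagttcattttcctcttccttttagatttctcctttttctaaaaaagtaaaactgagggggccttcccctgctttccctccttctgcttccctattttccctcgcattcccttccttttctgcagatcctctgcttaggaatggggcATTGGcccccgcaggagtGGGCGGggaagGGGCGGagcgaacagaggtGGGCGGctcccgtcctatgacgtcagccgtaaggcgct

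The ZNF224 window held 1 match to the ZNF143 core and none of the other 3 motifs. ZNF780B and ZNF12 held 1 ETS core and 1 CCAAT box each, and ZNF330 held 3 GC boxes and 1 CCAAT box. Matches to others of the 12 motifs searched are not marked, among them TGACGTCA in ZNF330 and GCGCATGCG in ZNF12. Of the 94 members with a RefSeq promoter, 9.57% held the ZNF143 core, against 1.98% of all 27305 promoters. CCGGAA was present in 36.2% of members and 14.8% of all promoters, GGGCGG in 64.9% and 42.3%, CCAAT in 46.8% and 33%, and GCGCATGCG (the core bound by NRF1) in 8.51% and 1.78%. TATAAA was present in 2.13% of members and 11.1% of all promoters, TGACGTCA in 4.26% and 1.77%, and CACGTG in 6.38% and 6.49%. The other 4 of the 12 motifs searched were ACTACAA, a short form of the ZNF143 core, in 7.45% of members and 2.64% of all promoters, the ZBTB33 core in 1.06% and 0.41%, GAAATC in 5.32% and 9.31%, and TGCGCA in 20.2% and 7.05%. Motifs were searched on both strands and may overlap, as ACTACAA and the ZNF143 core do, or TGCGCA and GCGCATGCG. The 4 shown in capitals were picked after the shares of all 12 had been seen. The 27305 promoters were not limited to genes counted in these libraries, while the members were chosen as well counted. Whether other well-counted genes have similar shares was not tested. A match describes the letters and does not show that a factor binds there.

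Total counts ranged from 5634961 to 7418432 in positive and from 6121383 to 7990839 in negative libraries. The libraries were made with an amplicon kit, and levels are therefore compared between libraries and not between genes, since counts per amplicon are not counts per length. Of the fixed epithelial and A549 markers, 9 of 12 were well enough counted to be tested, among them KRT8, ALDH1A1 and AKR1B10. All 9 had log2 fold changes below 0. Of all tested rows 48.1% were above 0, and of rows with a mean count of 100 or more 39.3%. The summed level of the markers was 6612 to 8091 CPM (reads scaled to library size) in positive and 7916 to 9010 CPM in negative libraries. SFTPB and SFTPC, surfactant genes expressed in alveolar type 2 cells, averaged 1.38 and 1.12 raw counts. Summed fibroblast markers came to 20.6 to 21.2 CPM in positive and 18.3 to 21.3 CPM in negative libraries, leukocyte markers to 72.4 to 77.2 and 51.1 to 72.6 CPM, and endothelial markers to 0 to 1.21 and 0 to 1.06 CPM, and their part in the results was not tested. Whether each library had its own culture is not said in the labels, and the p-values therefore reflect the spread among these samples, which may be technical. In bulk RNA, fewer cells of a type and less RNA per cell cannot be told apart.

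By edgeR's quasi-likelihood test no ZNF gene reached an adjusted p under 0.05. Over all 11351 tested rows 0% passed, with 1631 at an unadjusted p under 0.05. Most ZNF genes had estimates above 0, that is, higher values in positive cells. The median log2 fold change was 0.17 over the 109 members, with 75 of them (68.8%) above 0. It was -0.02 over all tested rows, of which 48.1% were above 0, and -0.09 over the 6969 rows with a mean count of 100 or more, of which 39.3% were above 0. At an unadjusted p under 0.05, 15 members (13.8%) were higher in positive cells, where 7.52% of all tested rows were, and 3 (2.75%) were lower, where 6.85% of all rows were. Among the rows with a mean count of 100 or more, 5.55% were higher and 9.36% lower. These member counts are a description, since the threshold admitted some members through their positive values. The 18 members that averaged under 100 in negative libraries held 7 of the 15 higher ones (ZNF224, ZNF775, ZNF12, ZNF783, ZNF707, ZNF160 and ZNF793) and 17 estimates above 0. The 91 others held 8 higher and all 3 lower members, with 58 estimates above 0. With libraries scaled by their totals alone the split of members was 24 higher and 0 lower, while over all rows 10.2% were higher and 2.85% lower. With upper quartile scaling it was 22 and 1, with 9.57% and 4.26% over all rows. Without positive 1 it was 9 higher and 1 lower, with 4.9% and 5.49% over all rows. The lower count was also 1 without positive 4, negative 2 or negative 6. With positive 1 and negative 2 both left out it was 10 and 1, and all 15 of the higher members still had log2 fold changes above 0, 8 of them at an unadjusted p under 0.05. DESeq2's Wald test called 0.458% of all rows and 1 member, ZNF224, at an adjusted p of 0.0484, and limma voom called 0 rows.

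**Figure D1:**
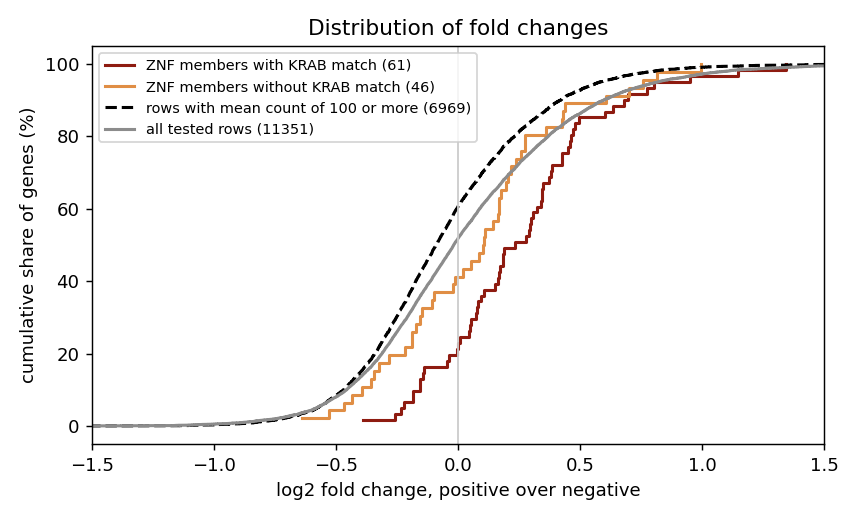
Cumulative share of genes (%) by log2 fold change, positive over negative, for ZNF members with a KRAB match (61), those without (46), all rows with a mean count of 100 or more (6969) and all tested rows (11351). The curve of KRAB members has its median at 0.23 and that of members without a match at 0.10, against -0.02 for all tested rows.

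The level of the members as a whole differed narrowly between the groups. The mean log2-CPM of the 109 members was 5.05, 4.86, 4.92 and 4.83 in positive 1, 3, 4 and 5, against 4.70, 4.75, 4.74 and 4.81 in negative 2, 6, 7 and 8. The groups did not overlap, but positive 5 and negative 8 were 0.02 apart, and positive 1 was the highest library. These levels include the 18 members whose mean count reached the threshold in positive libraries only, 17 of them with estimates above 0. The threshold itself thus raised the positive levels relative to the negative ones, and the narrow gap is a description. Whether the groups stay apart without these members was not tested. Of the 109 members, 43 had their highest value in positive 1 and 43 their lowest in negative 2. Negative 2 also held the highest value of 22 members and positive 1 the lowest of 17. Averaged by group the level was 4.91 ± 0.09 over positive and 4.75 ± 0.05 over negative libraries (SD, n = 4 each). The spread of single members between libraries was larger, with a median coefficient of variation of 18.7% in positive and 16.3% in negative libraries. For a typical member the 95% interval reached 0.47 (the median) to either side of the log2 fold change, and 93 of 109 members had estimates between -0.5 and 0.5.

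Transcripts often held in the nucleus moved with this level. The 17 tested members of a list of such transcripts, among them NKTR, PNISR and the cyclin gene CCNL2, had mean log2-CPM values of 6.12, 5.41, 5.55 and 5.51 in positive 1, 3, 4 and 5, against 5.02, 5.26, 5.18 and 5.52 in negative 2, 6, 7 and 8. Positive 1 was the highest and negative 2 the lowest library here too, and negative 8 lay above positive 3 and 5. The median log2 fold change of the list was 0.35, with 12 of 17 above 0, and 5 (29.4%) were higher at an unadjusted p under 0.05, where 7.52% of all rows were. NKTR, CCNL2 and PNISR, the 3 of smallest p, were at 0.93, 1.33 and 0.55, and the 5 genes below 0 included SON at -0.37 and CLK4 at -0.26, picked after their values were seen. The 56 tested genes of oxidative phosphorylation had mean log2-CPM values of 7.04, 7.20, 7.13 and 7.14 in positive 1, 3, 4 and 5, against 7.60, 7.30, 7.38 and 7.19 in negative 2, 6, 7 and 8. Here positive 1 was the lowest and negative 2 the highest library, and the groups overlapped, with negative 8 below positive 3. By the longest annotated transcript of each gene, ZNF genes were also longer and poorer in GC than most. Their median length was 4452 bases and their median GC 44.0%, against 3683 bases and 47.9% over all tested rows. After removal of a smooth curve over length and GC content the median of the members was 0.15. The part of these lists in the ZNF values was not tested.

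**Figure D2:**
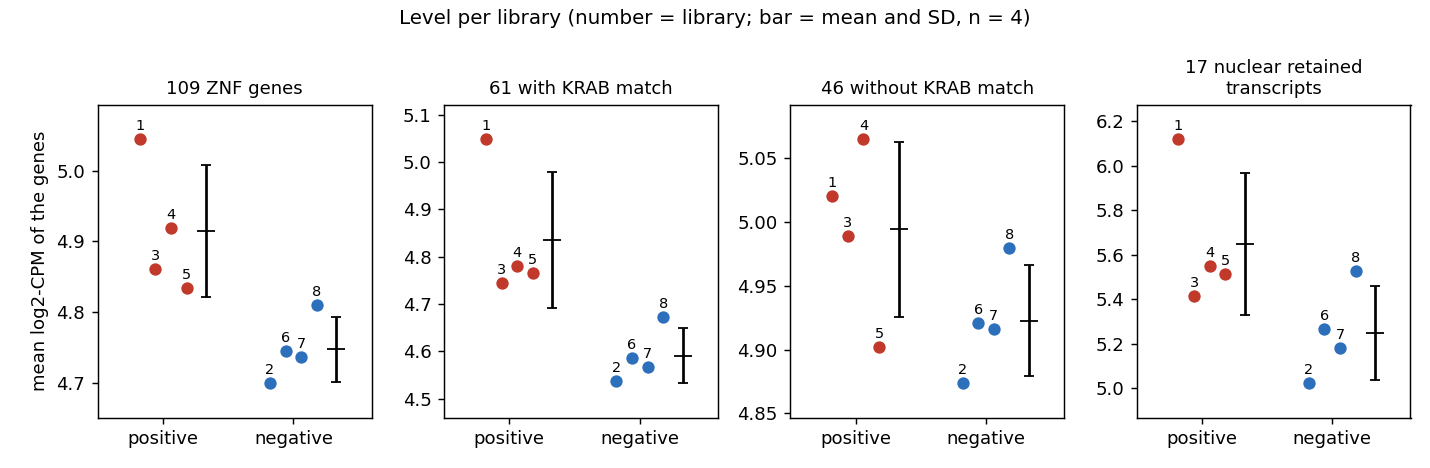
Mean log2-CPM per library of the 109 ZNF genes, the 61 with and the 46 without a KRAB match, and 17 nuclear retained transcripts, in positive and negative libraries (points, numbered by library, with group mean and SD, n = 4 each). Positive 1 is the highest library in 3 of the 4 panels, and for the KRAB genes all positive libraries lie above all negative ones. The ZNF levels include genes that the count threshold admitted through their positive values.

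Genes with a KRAB match had a higher median than those without one. The wider search may match proteins with no KRAB domain, which may hold for some of the 6 named above. Of these 6, 2 had estimates above 0. A gene without a match may still hold a KRAB domain that the pattern missed. The 61 matching genes, called KRAB genes here, had a median log2 fold change of 0.23, and 47 of them (77%) were above 0. At an unadjusted p under 0.05, 10 (16.4%) were higher and 0 (0%) lower, beside 7.52% and 6.85% of all tested rows. Of the 10, ZNF224, ZNF12, ZNF783, ZNF707, ZNF160 and ZNF793 averaged 100 or more counts in positive libraries only. The threshold thus admitted them through their positive values, and these counts are a description. The 46 genes without a match had a median of 0.10, with 27 (58.7%) above 0, 5 (10.9%) higher and 3 (6.52%) lower. Of these 5, ZNF775 averaged 100 or more in positive libraries only. The difference between genes with and without a match was not tested. They also differed in finger number, with medians of 11 and 4 fingers. Members with under 3 fingers had a median log2 fold change of -0.03. The part of finger number in the difference was not tested. The mean log2-CPM of the KRAB genes was 5.05, 4.75, 4.78 and 4.77 in positive 1, 3, 4 and 5, against 4.54, 4.59, 4.57 and 4.67 in negative 2, 6, 7 and 8. All positive libraries lay above all negative ones, with positive 1 far above the rest. Besides those named above, ZNF101, ZNF557, ZNF445 and other KRAB genes averaged 100 or more counts in positive libraries only. The levels, and the medians of genes with and without a match, include such genes and are therefore a description too. Relative to all tested rows the median of the KRAB genes was 0.25 higher. It was 0.17 higher without positive 1, and 0.17 higher without both positive 1 and negative 2. The genes without a match were 0.12 higher than all rows, 0.08 without positive 1, 0.03 without positive 4, 0.05 without negative 2, and 0.02 without both positive 1 and negative 2. The stricter search, added after the matches had been seen, gave a median of 0.28 for its 55 genes, with 45 (81.8%) above 0, and 0.09 for the 52 others, with 29 (55.8%) above 0.

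The medians of cluster members and of members on other chromosomes were close with all libraries in and less so with some left out. The 29 genes in chromosome 19 clusters had a median log2 fold change of 0.17, with 24 (82.8%) above 0. The 73 genes on other chromosomes had a median of 0.16, with 46 (63%) above 0. In the same order they were 0.25 and 0.12 without positive 3, and 0.16 and 0.09 without positive 4. They were 0.20 and 0.09 without negative 2, and 0.26 and 0.18 without negative 8. Without positive 1 they were 0.16 and 0.12, without positive 5 0.21 and 0.20, and without negative 6 0.18 and 0.13. Without negative 7 the order was reversed, at 0.12 and 0.13. The difference was not tested. The 7 members on chromosome 19 outside the clusters, which include ZNF780A and ZNF780B, had a median of 0.38. KRAB genes had medians of 0.30 on chromosome 19 (28 genes) and 0.19 elsewhere (33 genes). Genes without a match had medians of 0.10 on chromosome 19 (8 genes) and 0.10 elsewhere (38 genes). Within the clusters the medians were 0.18 with a match (24 genes) and 0.16 without (5 genes). Among the clusters, the 4 members between 43525497 and 44500524, ZNF224 among them, had a median of 0.27 and the 4 between 51571298 and 53580269 a median of 0.36, and each of these members was above 0. The 7 members between 36182060 and 37817300 had a median of 0.04. By finger number, 8 of 22 members with under 3 fingers (36.4%) were above 0, 28 of 35 with 3 to 9 (80%) and 38 of 50 with 10 or more (76%), with medians of -0.03, 0.22 and 0.19.

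**Figure D3:**
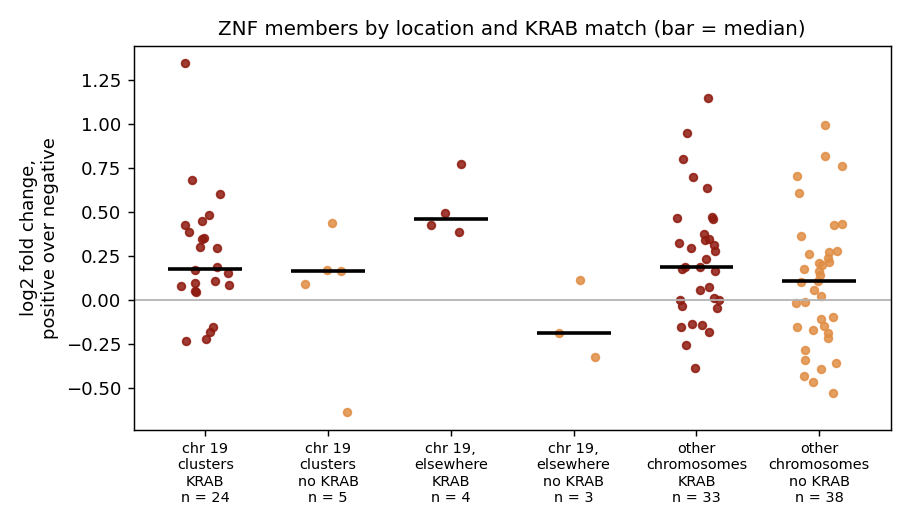
Log2 fold change, positive over negative, of 107 ZNF members by location (chromosome 19 clusters, chromosome 19 elsewhere, other chromosomes) and KRAB match, 1 point per gene, with a bar at the median. The median of KRAB genes on other chromosomes is 0.19 (n = 33) and that of genes without a match there 0.10 (n = 38). In the same order the medians are 0.18 (n = 24) and 0.16 (n = 5) in chromosome 19 clusters. Elsewhere on chromosome 19 they are 0.46 (n = 4) and -0.19 (n = 3).

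Among the KRAB genes the smallest p-values belonged to ZNF224, a repressor of the aldolase A gene and partner of the Wilms tumour protein. It lies on chromosome 19 at 44094339 to 44109886 (GRCh38) and encodes 18 fingers. ZNF224 was at 40.2, 18.6, 14.8 and 20.3 CPM in positive 1, 3, 4 and 5, against 5.82, 9.14, 7.87 and 13.97 CPM in negative 2, 6, 7 and 8. The groups did not overlap, although positive 4 and negative 8 were close, and positive 1 stood highest. Its log2 fold change was 1.34 ± 0.35 (SE; edgeR adjusted p 0.309) and 0.96 without positive 1. Among all 109 members, 11 (10.1%) had every positive library above every negative one, where 5% of all tested rows did, and 1 (0.917%) every positive library below, where 4.14% of all rows did. Of the 11, ZNF224, ZNF775, ZNF12, ZNF783 and ZNF101 averaged 100 or more counts in positive libraries only, so this count is a description. KRAB genes made up 7 of the 11, beside 61 of the 107 members with a coding sequence.

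ZNF780B, a KRAB gene with 21 fingers at 40028260 to 40056209 on chromosome 19, was at 86.6, 61.3, 57.4 and 56.6 CPM in positive 1, 3, 4 and 5, against 33.4, 36.6, 34.4 and 48.6 CPM in negative 2, 6, 7 and 8. No values overlapped, and those of positive 3, 4 and 5 lay close together. The log2 fold change was 0.77 ± 0.20 (SE; edgeR adjusted p 0.309) and 0.61 without positive 1. Its neighbour ZNF780A was at 277, 132, 167 and 108 CPM in positive 1, 3, 4 and 5, against 99.6, 125, 135 and 165 CPM in negative 2, 6, 7 and 8. Here the groups overlapped, with a log2 fold change of 0.38 that was 0.05 without positive 1. The pair share 6.62% of the 50-base words of the ZNF780B coding sequence, so reads may have been divided between them. Of 107 coding sequences 9 shared 5% or more of such words with another ZNF gene, including ZNF33A and ZNF33B (0.29 and 0.31 log2) and ZNF585A (-0.22), whose closest copy ZNF585B shares 43.2%.

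On chromosome 7 lie the KRAB genes ZNF12, a transcriptional repressor, and ZNF783. ZNF12 (6688433 to 6706923) was at 36.5, 16.99, 13.3 and 15.99 CPM in positive 1, 3, 4 and 5, against 9.89, 9.48, 11.9 and 11.4 CPM in negative 2, 6, 7 and 8. ZNF783 was at 65.4, 24.8, 22.5 and 21.4 CPM in positive 1, 3, 4 and 5, against 8.43, 14.6, 16.2 and 21.1 CPM in negative 2, 6, 7 and 8. Neither gene overlapped between groups, but in both positive 1 was far above the other positive libraries, and ZNF783 was nearly equal in positive 5 and negative 8. Their log2 fold changes of 0.95 and 1.15 were 0.53 and 0.60 without positive 1. ZNF554, a KRAB gene in the first chromosome 19 cluster, was at 0.68, with 70.3 to 119.8 CPM in positive and 37.1 to 75.2 CPM in negative libraries, which overlapped. Some KRAB genes had estimates below 0. ZNF273 on chromosome 7 was at -0.39, and at -0.21 without negative 2, and ZNF254 on chromosome 19 was at -0.23, and the 95% intervals of both spanned 0.

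**Figure D4:**
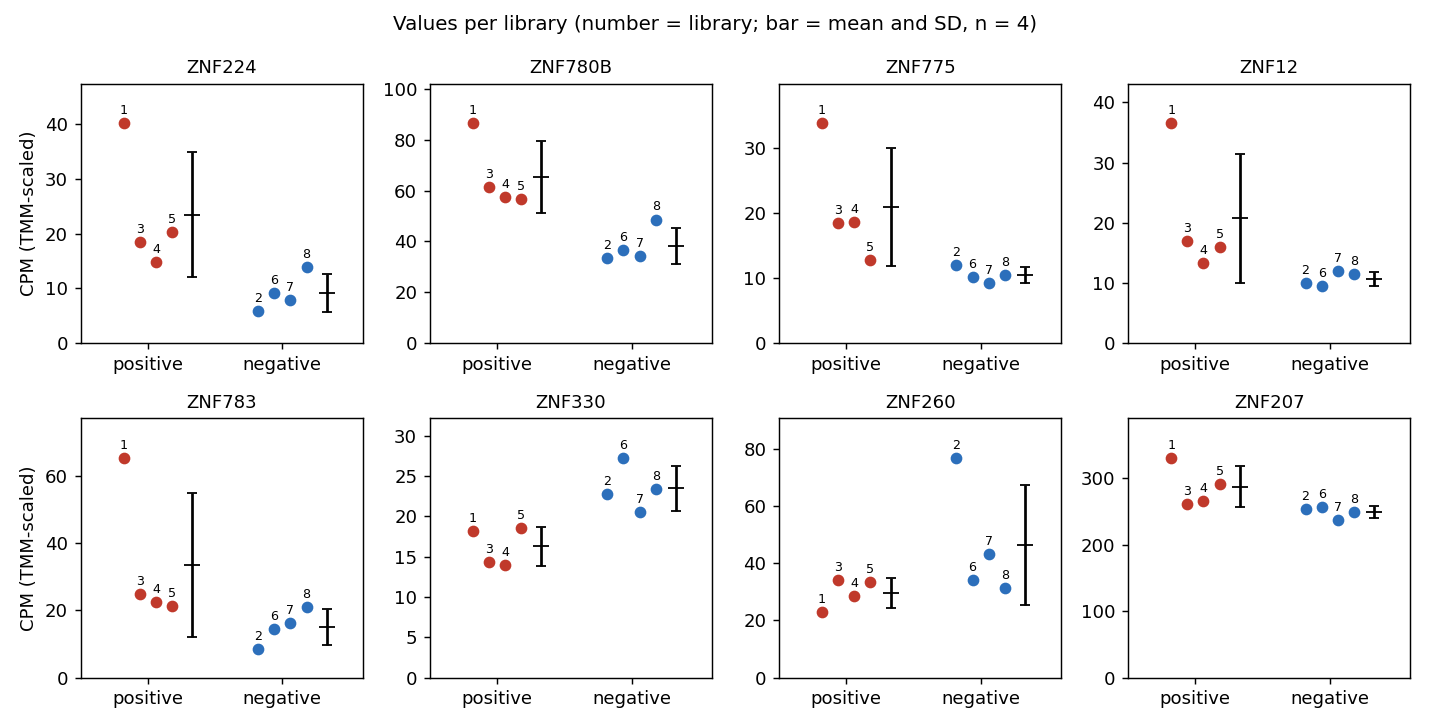
TMM-scaled CPM per library of ZNF224, ZNF780B, ZNF775, ZNF12, ZNF783, ZNF330, ZNF260 and ZNF207 in positive and negative libraries (points, numbered by library, with group mean and SD, n = 4 each). Positive 1 is the highest library for the first 5 genes, negative 2 is the highest for ZNF260, and all positive libraries lie below all negative ones for ZNF330.

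Of the genes without a KRAB match, ZNF775 on chromosome 7 (11 fingers) was at 33.9, 18.6, 18.7 and 12.7 CPM in positive 1, 3, 4 and 5, against 12.1, 10.2, 9.26 and 10.4 CPM in negative 2, 6, 7 and 8. The groups were apart by less than 1 CPM, and the log2 fold change of 0.99 ± 0.28 (SE; edgeR adjusted p 0.309) was 0.67 without positive 1. ZNF692, which represses genes of glucose production in liver cells, was at 0.82 and ZNF18 at 0.76, and without positive 1 they were at 0.51 and 0.48. Both overlapped between groups. ZNF592, named after its values were seen, was steadier, at 36.4, 38.9, 30.1 and 33.6 CPM in positive 1, 3, 4 and 5, against 26.2, 27.4, 24.4 and 25.5 CPM in negative 2, 6, 7 and 8. Its groups did not overlap and positive 3 was its highest library, with a log2 fold change of 0.42 ± 0.17 (SE; edgeR adjusted p 0.32). ZNF592, ZNF532 and ZNF687 encode partners of the chromatin reader ZMYND8, and ZNF532 and ZNF687, the second also named after its values were seen, were at 0.34 and 0.26 with intervals that spanned 0. Without negative 2, ZNF532 was at 0.21. ZNF532 counts among the genes with a KRAB match by the wider search only.

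Estimates close to 0 were found for the transcription factors chosen by role. ZNF410, which drives the chromatin remodeller gene CHD4, averaged 92.7 ± 8.06 CPM over the 4 positive libraries and 93.99 ± 11.2 CPM over the 4 negative ones (SD), giving a log2 fold change of -0.02 (95% interval -0.36 to 0.33). ZNF24 averaged 37.7 ± 4.71 CPM in positive and 37.2 ± 3.96 CPM in negative libraries, or 0.02 (-0.36 to 0.40). Both changed sign under some of the alternative settings. CHD4 itself was at -0.43. Of the well-counted genes by CPM, ZNF664 was at -0.15 (-0.51 to 0.22) and ZNF581, which overlaps ZNF580 and CCDC106 on the same strand, at 0.16 (-0.41 to 0.74), and both changed sign in some settings.

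The 3 members lower at an unadjusted p under 0.05, ZNF330, ZNF512 and ZNF260, had no KRAB match. ZNF330, a nucleolar protein gene at 141220887 to 141234697 on chromosome 4, was at 18.2, 14.4, 13.99 and 18.6 CPM in positive 1, 3, 4 and 5, against 22.8, 27.2, 20.5 and 23.4 CPM in negative 2, 6, 7 and 8. It was the 1 member with every positive library below every negative one. The log2 fold change was -0.53 ± 0.20 (SE; edgeR adjusted p 0.312) and stayed between -0.60 and -0.45 with each library left out. ZNF512, whose product binds pericentromeric repeats, was at -0.47, and its groups overlapped by 1 library on each side. ZNF260 was at 22.9, 34.2, 28.4 and 33.4 CPM in positive 1, 3, 4 and 5, against 76.8, 34.2, 43.1 and 31.4 CPM in negative 2, 6, 7 and 8. Negative 2 was more than 30 CPM above every other library, and the log2 fold change of -0.64 was -0.27 without it. ZNF639 (-0.44) and ZNF706 (-0.34) were likewise at -0.22 and -0.13 without negative 2.

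Genes of RNA, ribosome and spindle function, which encode few fingers of the usual spacing, lay mostly near or below 0. ZNF207 encodes a partner of the checkpoint protein BUB3 at kinetochores. It was at 330.5, 262, 266 and 291 CPM in positive 1, 3, 4 and 5, against 253, 257, 237 and 249 CPM in negative 2, 6, 7 and 8. The groups did not overlap, but the log2 fold change was 0.21 (95% interval -0.12 to 0.54) and 0.13 without positive 1. ZNF326, which couples splicing to transcript elongation, was at -0.36, the double-stranded RNA binder ZNF346 at -0.28 and ZNF593, whose yeast counterpart acts in large ribosomal subunit assembly, at -0.15. ZNF598, the ubiquitin ligase that marks collided ribosomes, was at -0.11 and ZNF638, which helps to silence unintegrated retroviral DNA, at -0.04. ZNF326 was at -0.16 without negative 2 and ZNF346 at -0.15 without positive 1. The intervals of all 5 spanned 0, and ZNF598 and ZNF638 changed sign in some settings. Of 28 genes listed by role, 10 were members. None of the listed repressors of repeats, such as ZNF91 and ZNF93, nor of the listed p53 and DNA damage genes were.

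**Figure D5:**
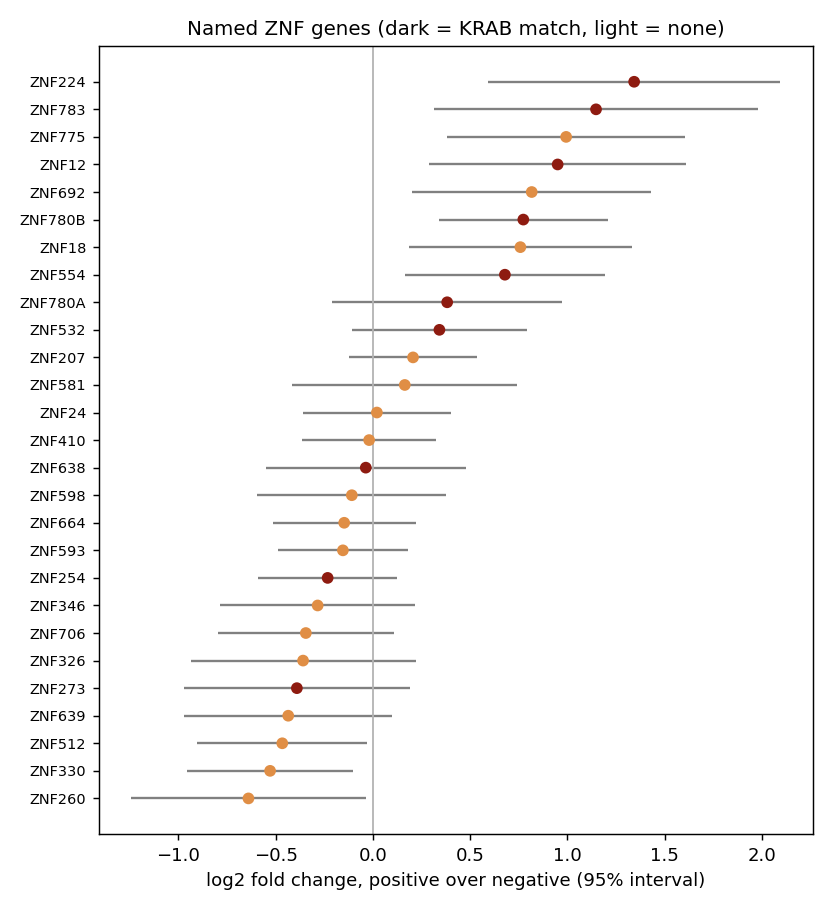
Log2 fold change, positive over negative, with its 95% interval for the 27 named ZNF genes, ordered by estimate (dark points have a KRAB match, light points have none). The intervals of 8 genes lie wholly above 0, from ZNF224 (1.34) to ZNF554 (0.68), and those of ZNF512, ZNF330 and ZNF260 wholly below 0. The named genes include the 8 of smallest p in each direction, so intervals clear of 0 follow from this choice.

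The repressor machinery that KRAB proteins recruit was close to the background. Of 27 tested genes of this list, 11 (40.7%) had log2 fold changes above 0, beside 48.1% of all rows and 39.3% of rows with a mean count of 100 or more, and the median was -0.14. At an unadjusted p under 0.05, 1 (3.7%) was higher and 2 (7.41%) were lower, beside 7.52% and 6.85% of all rows. The difference from the ZNF genes was not tested. TRIM28, the KRAB co-repressor, was at -0.32 ± 0.16 (SE; edgeR adjusted p 0.377) and SETDB1 at 0.46 ± 0.26 (edgeR adjusted p 0.41). The 3 genes of smallest p were SUMO2, which encodes a modifier that TRIM28 carries, at -0.52, TRIM33 at -0.52 and ATF7IP2 at 0.62. The heterochromatin protein genes CBX3 and CBX5 were at 0.44 and -0.37. The members' own family below the count threshold had a median of 0.21 over 229 tested rows, with 161 (70.3%) above 0, 24 (10.5%) higher and 3 (1.31%) lower at an unadjusted p under 0.05. Of related families, the 12 ZSCAN genes had a median of 0.13 with 9 above 0, the 13 ZFP genes 0.03 with 7, the 6 ZKSCAN genes 0.12 with 3 and the 26 ZBTB genes 0.02 with 13.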

How the data were processed

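Estimated counts per gene were deposited by the authors, made with fastp 0.20.1 and Salmon 1.9 on GRCh38 per the submitters' processing notes, from libraries of an amplicon kit per the labels. They were already whole numbers. The sources used here do not give how transcripts were summed to genes. Each library was placed by its title. All 8 libraries were fitted with edgeR 4.0.16 (TMM, filterByExpr at 10 counts a library and 15 in total, robust quasi-likelihood test, R 4.3.3) over 11351 rows, with Benjamini-Hochberg adjustment. CPM are TMM-scaled, and log2-CPM used a prior count of 2. All 109 members passed the filter. DESeq2 1.42.0 and limma 3.58.1 (voom) were alternatives. The closest pair of libraries had a chi-square of 8.44 per degree of freedom, so none was counted as another sequenced again. This value cannot tell whether libraries came from the same culture or RNA. Fingers and KRAB matches were read from GENCODE 29 coding sequences translated with Biopython 1.88, where RefSeq proteins had been planned. KRAB matches allowed up to 3 differing positions as planned, and a limit of 1 was added after the matches had been seen. Of 12 promoter motifs searched, all are reported. Named genes were, of the members, the 8 of smallest p in each direction, the 6 of highest CPM and 28 listed by role where they are members. The methods were tested on simulated data. The members, lists and alternatives were chosen with earlier results of these data known.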

Additional observations from a re-analysis of the deposited data

Results flagged for a closer look

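In 64 groups of 4 libraries examined, 6 held a library whose gap to the nearest other took up most of the group's range (Dixon's test at the 95% level), and chance flags about 1 in 20 groups. Positive 1 was such a library for ZNF780B (86.6 CPM), ZNF12 (36.5 CPM), ZNF783 (65.4 CPM) and ZNF593 (62.6 CPM), in each case above the other positive libraries, and for the mean log2-CPM of the KRAB genes (5.05). Positive 4 stood above the other positive libraries for ZNF706 (26.2 CPM).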

How the results depend on the processing

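The median log2 fold change of the ZNF genes was above 0 under all 19 alternative settings. Scaling by library totals shifted the median of all tested rows from -0.02 to 0.10. The median of the members was 0.18 above that of all rows with TMM and 0.18 with totals, and between 0.10 (voom, or without both positive 1 and negative 2) and 0.22 (at least 50 counts) in the other settings. With library totals the median was 0.27 for all members and 0.25 outside chromosome 19, with 24 members higher and 0 lower at an unadjusted p under 0.05, while 10.2% of all rows were higher and 2.85% lower. The lower count was 1 with upper quartile scaling, with at least 50 counts, with a length and GC curve removed and without both positive 1 and negative 2. With voom the median outside chromosome 19 was 0.087. DESeq2's Wald test called 52 rows. Leaving out single libraries gave 0 to 1 row past the adjusted threshold, 9 to 19 members higher and 1 to 3 lower, and medians of 0.12 to 0.21 for all members, 0.12 to 0.26 in chromosome 19 clusters and 0.093 to 0.20 outside chromosome 19. Of 27 named genes, 20 kept their sign in all settings and ZNF24, ZNF410, ZNF581, ZNF598, ZNF638, ZNF664 and ZNF780A did not. The causes were not tested. With a count threshold of 50 or 200 in place of 100 the median was 0.17 in both cases, and it was 0.16 without pseudogenes and the near copies ZNF780A, ZNF780B, ZNF33A and ZNF33B, a setting chosen after seeing the data. With at most 1 differing position in the KRAB search, also chosen after seeing the data, the median of KRAB genes was 0.28 in place of 0.23. Intervals cover the spread between 4 libraries a group. For a typical member they reached 0.47 on the log2 scale to either side, so smaller differences of single members may go unseen. Some intervals were narrower, and those of ZNF592 (0.42) and ZNF512 (-0.47) excluded 0. No paired analysis was possible because each library number was used once.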
